A study of Mus musculus with 6 samples.

Results

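The genes described here are 35 that encode chaperones and folding enzymes of the endoplasmic reticulum, the machinery of ER-associated degradation (ERAD), the sensors and transcription factors of the unfolded protein response, and the protein translocon. They were picked by gene symbol out of 16123 genes in the deposited table, and all 35 were found and passed the filter on low values, a mean of at least 1 FPKM (fragments per kilobase of gene, relative to library depth), as did 10266 genes in all. By role, 18 were chaperones and folding enzymes, 11 ERAD genes, 4 sensors and transcription factors and 2 translocon genes. RNA came from livers of mice perfused with saline, in 3 exercise and 3 sedentary libraries, and the series design speaks of 3 adult mice in either arm. The exercise mice ran 22 km each on a treadmill within 6 weeks and were killed 24 h after their last training, and the sedentary mice had no treadmill training. The labels used here name no strain, sex or exact age. The study asked how moderate exercise alters liver metabolism and protein lactylation.

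Secreted and membrane proteins enter the endoplasmic reticulum through the Sec61 translocon, where BiP (Hspa5) and its partners, the lectins calnexin and calreticulin, and protein disulfide isomerases fold them. Proteins that fail to fold are passed back to the cytosol through ERAD, in which the ubiquitin ligase Hrd1 (Syvn1) and its partner Sel1l mark them for the proteasome. When unfolded protein builds up, the sensors ATF6, IRE1 (Ern1) and PERK raise transcription of chaperone and ERAD genes, in part through XBP1, whose messenger RNA IRE1 splices. The hepatocyte, which makes most plasma proteins, is rich in this machinery.

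The libraries held between 17941303 and 18371949 counts, of which the hepatocyte gene Alb took 1444160 to 1506660. Libraries of the same group differed by little more than counting noise, with a mean chi-square per gene, over genes of 20 to under 2000 reads in a pair, of 1.13 to 1.21 over the 6 pairs within a group and 4.23 to 4.36 over the 9 pairs between groups. That range leaves out the most abundant of the 35 genes. Beyond the design text nothing ties each library to a mouse of its own, so separate mice and repeat libraries cannot be told apart, and p-values, SE and SD below measure only the spread between these libraries, which may be technical. All counts of the 35 genes were whole numbers, from 84 for Derl3 to 27045 for P4hb in a library.

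Of the 35 genes, 21 were higher and 8 lower in exercise livers, and 6 did not pass the test (edgeR quasi-likelihood, Benjamini-Hochberg adjusted p under 0.05). Over all tested genes 38.1% were called, 19.1% higher and 19% lower, so 60% higher was well above that background and 22.9% lower was close to it. That background was not matched for level, and small changes are called more readily in abundant genes. All 35 genes also passed a minimum mean of 5 FPKM, at which 2885 of 6583 genes were called, 50.7% of them higher. The median log2 fold change was 0.14 for the 35 genes and −0.00062 for all tested genes. At a change of at least 1.5-fold, 7 of the 35 were called higher, where 0.994% of all tested genes were, and 1 was called lower, where 2.46% were. The 7 were Creld2, Dnajb9, Hyou1, Hspa5, Manf, Syvn1 and Herpud1, and the 1 was Derl3. Other scalings moved the balance over all genes, from 1961 higher and 1952 lower to 3537 and 1203 with library totals alone, 2583 and 1575 when the 20 genes with most reads were left out of the totals, 2868 and 1099 with limma on log2(FPKM + 1), and 3716 and 915 with limma on log2(TPM + 1). For the 35 genes that last scaling gave 26 higher and 5 lower.

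**Figure D1:**
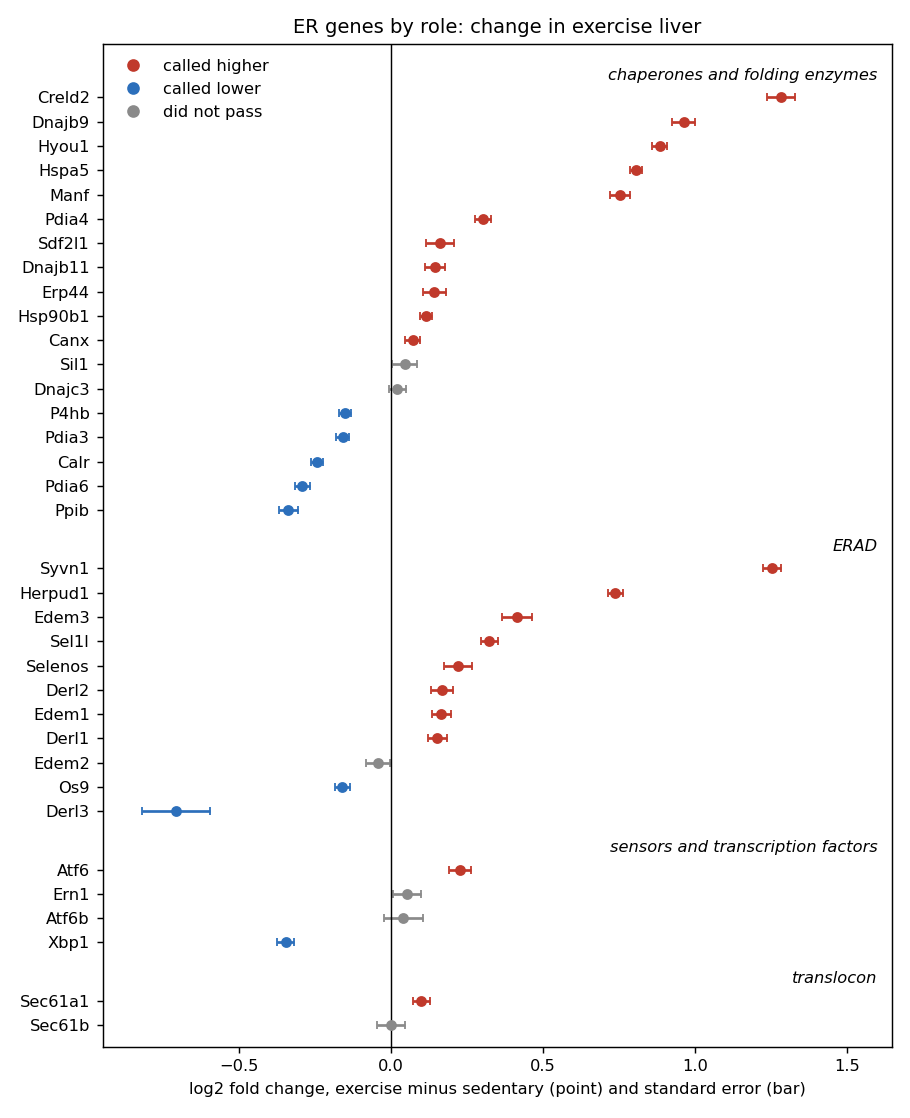
Log2 fold change (exercise minus sedentary, by TMM-scaled counts, which share a scale factor trimmed of extreme genes) of the 35 genes on the horizontal axis, with its standard error as a bar, grouped by role and coloured by call. Creld2 (1.28) and Syvn1 (1.25) stand farthest to the right, and Derl3 (−0.71) farthest to the left.

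Gene starts of this pathway are known for a short composite element, the ER stress response element (ERSE), which consists of CCAAT and CCACG held 9 bases apart and is bound by NF-Y together with ATF6 or XBP1. In the ERSE-II variant ATTGG and CCACG stand 1 base apart. RefSeq promoter windows of GRCm38.p6, from 250 bases before to 50 after each start, were found for 29 of the 35 genes and searched on both strands. ERSE was present in 9 of the 29 (31%) and in 16 of the 8323 tested genes with a window (0.192%), so 9 of those 16 were among the genes described here. ERSE-II was present in 2 of the 29 (6.9%) and in 0.108% of the tested genes. The matches are descriptions of letters and not evidence of binding. They are shown because genes that carry the same element went in different directions, and all 12 matches are printed from CCAAT or ATTGG to CCACG, with these fixed letters in capitals.
Creld2 (chr15:88819520-88819538, − strand): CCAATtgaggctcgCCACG
Syvn1 (chr19:6046532-6046550, + strand): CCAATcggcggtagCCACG
Hspa5 (chr2:34772025-34772043, + strand): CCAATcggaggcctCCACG
Hsp90b1 (chr10:86705638-86705656, − strand): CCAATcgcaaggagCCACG
Hsp90b1 (chr10:86705533-86705551, + strand): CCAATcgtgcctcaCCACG
Canx (chr11:50325800-50325818, − strand): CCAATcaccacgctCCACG
Dnajc3 (chr14:118937827-118937845, + strand): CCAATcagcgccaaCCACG
Calr (chr8:84847075-84847093, + strand): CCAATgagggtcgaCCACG
Pdia6 (chr12:17266491-17266509, + strand): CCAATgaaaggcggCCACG
Derl3 (chr10:75893242-75893260, − strand): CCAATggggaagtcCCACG
Herpud1, ERSE-II (chr8:94386377-94386387, + strand): ATTGGgCCACG
Dnajb11, ERSE-II (chr16:22857852-22857862, + strand): ATTGGcCCACG

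Of the 9 genes with an ERSE, 5 were higher in exercise (Creld2, Syvn1, Hspa5, Hsp90b1 and Canx), 3 were lower (Calr, Pdia6 and Derl3), and Dnajc3 did not pass. Both ERSE-II genes, Herpud1 and the co-chaperone gene Dnajb11, were higher. ERSE thus stood in 5 of the 16 windows of genes called higher (31.2%) and in 3 of the 8 windows of genes called lower (37.5%). ERSE-II stood in 2 of the 16 (12.5%) and in 0 of the 8. The missing windows fell mostly on the higher side, as 16 of the 21 higher genes and all 8 lower genes had one. Atf6, Derl1, Hyou1, Manf and Sec61a1, all called higher, had no window, nor had Sil1, which did not pass. Of the 7 other tested genes with an ERSE, 2 were higher, Ero1lb, an oxidase that supplies disulfide bonds (log2 fold change 0.67), and Acnat2 (0.70). Xlr3a was lower (−0.83), and Alg12, a mannosyltransferase of N-glycan assembly (0.24, edgeR adjusted p = 0.0645), was among the 4 that did not pass. The XBP1 element TGACGTGG was in none of the 29 windows and in 0.949% of those of tested genes. Its core ACGTGG was in 10 of the 29 (34.5%) and in 13.5% of those of tested genes. The core stood in 4 of the 16 windows of genes called higher (25%) and in 5 of the 8 of genes called lower (62.5%). The cyclic AMP element TGACGTCA was in none of the 29 and in 3.51% of those of tested genes. CCACG alone, which is part of both ER stress elements and of the reverse complement of the XBP1 element, was in 86.2% of the 29 and in 52.2% of tested genes.

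**Figure D2:**
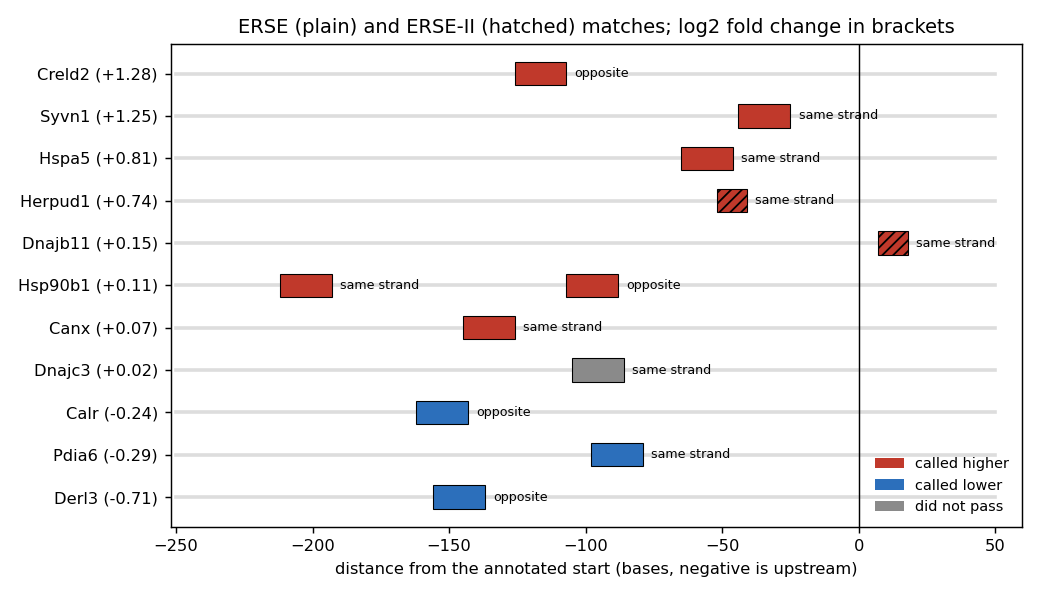
Position of each ERSE (plain) and ERSE-II (hatched) match against the annotated start of 11 genes, in bases on the horizontal axis, coloured by call, with the log2 fold change in brackets. The 3 genes that were lower have their matches between 162 and 80 bases upstream. That stretch also holds those of Creld2, Canx and Dnajc3 and the nearer match of Hsp90b1, whose other match lies farther upstream. The matches of Syvn1, Hspa5 and Herpud1 lie nearer the start and that of Dnajb11 lies past the start.

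The whole 250 bases upstream are given for 2 genes that rose and 2 that fell, all on the strand of the gene, with the fixed letters of the ERSE in capitals. On the opposite strand the element reads CGTGG and, 9 bases on, ATTGG, as it does in Creld2, Calr and Derl3.
Creld2 (chr15:88819396-88819645, + strand): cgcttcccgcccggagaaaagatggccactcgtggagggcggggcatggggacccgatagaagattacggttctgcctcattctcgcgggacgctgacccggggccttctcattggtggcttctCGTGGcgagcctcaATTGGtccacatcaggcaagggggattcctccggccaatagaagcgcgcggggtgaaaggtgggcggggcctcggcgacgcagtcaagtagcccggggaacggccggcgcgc
Hspa5 (chr2:34771840-34772089, + strand): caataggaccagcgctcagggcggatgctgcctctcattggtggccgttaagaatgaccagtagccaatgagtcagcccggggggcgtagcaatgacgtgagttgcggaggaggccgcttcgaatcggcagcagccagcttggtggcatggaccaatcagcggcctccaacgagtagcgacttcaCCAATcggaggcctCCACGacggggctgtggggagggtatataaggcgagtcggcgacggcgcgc
Calr (chr8:84846932-84847181, − strand): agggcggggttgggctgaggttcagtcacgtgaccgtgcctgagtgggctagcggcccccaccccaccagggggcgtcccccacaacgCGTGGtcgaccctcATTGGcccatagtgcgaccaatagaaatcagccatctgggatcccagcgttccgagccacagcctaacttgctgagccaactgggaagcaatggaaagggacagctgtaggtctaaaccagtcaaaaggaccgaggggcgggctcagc
Derl3 (chr10:75893148-75893397, + strand): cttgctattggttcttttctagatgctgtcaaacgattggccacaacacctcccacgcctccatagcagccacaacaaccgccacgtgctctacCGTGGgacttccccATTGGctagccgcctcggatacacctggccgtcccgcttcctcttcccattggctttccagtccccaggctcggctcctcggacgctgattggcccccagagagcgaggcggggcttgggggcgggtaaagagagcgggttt

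Of the 18 chaperones and folding enzymes, 11 were higher, 5 lower and 2 did not pass, with a median log2 fold change of 0.13. Of BiP and its partners, 6 of 8 were higher and none lower (median 0.46). The 6 disulfide isomerases and related proteins divided into 3 higher and 3 lower, and the lectins and the other folding factors into 1 higher and 1 lower each. Among the 5 genes that fell, none changed by 1.5-fold. They were abundant, at 164 to 578 FPKM in sedentary livers, against 13.3 to 333 FPKM for the 11 that rose.

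Hspa5 encodes BiP, the main HSP70 chaperone of the endoplasmic reticulum (gene ID 14828, chromosome 2, 34772090 to 34776529). Its FPKM was 325, 325 and 328 in the sedentary libraries and 607, 602 and 592 in the exercise libraries. Every exercise library was thus above every sedentary library, and the log2 fold change was 0.81 (SE 0.02, edgeR adjusted p = 4.52e-35). BiP transcripts made up 10.4% to 10.5% of the summed FPKM of the 18 genes in sedentary and 16.8% to 17.1% in exercise libraries. Hyou1, a large HSP70 relative that exchanges nucleotides on BiP (gene ID 12282, chromosome 9, 44379490 to 44392369), had 43.7, 43.5 and 44.3 FPKM in sedentary and 87.0, 85.4 and 82.9 FPKM in exercise libraries, again without overlap (log2 fold change 0.88, SE 0.03, adjusted p = 5.16e-32). The ratio of Hyou1 to Hspa5 FPKM was 0.134 to 0.135 in sedentary and 0.140 to 0.143 in exercise libraries, so these transcripts stayed near a fixed ratio while both rose.

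Dnajb9, a J-domain co-chaperone of BiP that also restrains IRE1 (gene ID 27362, chromosome 12, 44205897 to 44210068), had 31.3, 31.9 and 30.4 FPKM in sedentary and 65.5, 64.6 and 62.2 FPKM in exercise libraries. Its log2 fold change of 0.96 (SE 0.04, adjusted p = 1.05e-26) was the highest among the partners of BiP. Manf, a secreted factor that binds BiP (gene ID 74840, chromosome 9, 106888753 to 106891938), had 139, 136 and 135 FPKM in sedentary and 250.2, 243 and 229.9 FPKM in exercise libraries (log2 fold change 0.75, SE 0.03, adjusted p = 2.53e-24). The exercise libraries of Manf were spread more widely than the sedentary ones but did not reach them. Some 4.14% of the annotated exon bases of Manf overlap Dcaf1 on the other strand (5.04 FPKM in sedentary livers, 6.04 in exercise), and the labels do not say whether counting used strand. The other partners moved less. Sdf2l1 (log2 fold change 0.16) and Dnajb11 (0.15) were higher. Dnajc3, known as an inhibitor of PERK, and Sil1, another nucleotide exchange factor, were at 0.02 (SE 0.03) and 0.04 (SE 0.04) and did not pass. By FPKM both had all exercise libraries above all sedentary ones, as 36.6% of all tested genes did. Dnajc3 passed in 4 and Sil1 in 2 of the 18 alternative settings given below.

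Creld2, a small folding factor of the disulfide isomerase kind (gene ID 76737, chromosome 15, 88819646 to 88826681), showed the largest log2 fold change of the 35 genes. Its FPKM was 27.4, 28.5 and 24.9 in the sedentary libraries and 70.7, 68.2 and 68.1 in the exercise libraries. The groups did not overlap, and the log2 fold change was 1.28 (SE 0.05, edgeR adjusted p = 2.94e-28). Of the classical isomerases Pdia4 rose, from 95.9 ± 2.20 to 124 ± 1.64 FPKM (SD, n = 3; log2 fold change 0.30, adjusted p = 1.21e-13), and so did Erp44, which retrieves folding clients from the early secretory pathway (0.14). Pdia6 fell from 164 ± 3.57 to 141 ± 2.17 FPKM (log2 fold change −0.29, adjusted p = 9.71e-14). The FPKM ratio of Pdia4 to Pdia6 therefore went from 0.578 to 0.593 in sedentary up to 0.859 to 0.907 in exercise libraries.

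P4hb and Pdia3, the abundant isomerases, fell by less. P4hb had 578, 581 and 576 FPKM in sedentary and 545, 551 and 549.8 FPKM in exercise libraries (log2 fold change −0.15, SE 0.02, edgeR adjusted p = 4.53e-09), and Pdia3, which works with the lectins, had a log2 fold change of −0.16. Neither passed on the TPM scale, where P4hb was at −0.04 (adjusted p = 0.0887) and Pdia3 at −0.05 (adjusted p = 0.103). Ppib, a cyclophilin that turns proline bonds, fell most of the 18 genes. It had 351, 347 and 340.3 FPKM in sedentary and 271, 288 and 303 FPKM in exercise libraries (log2 fold change −0.34, SE 0.03, adjusted p = 5.21e-13), and its exercise libraries were spread more widely than the sedentary ones. Some 25% of the annotated exon bases of Ppib overlap Snx22 on the other strand, whose mean FPKM was 0.177 in sedentary livers and 0.123 after exercise.

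The lectin chaperones moved apart. Calr, the soluble calreticulin, had 573, 568 and 572 FPKM in sedentary and 514, 507 and 500.2 FPKM in exercise libraries, without overlap (log2 fold change −0.24, SE 0.02, edgeR adjusted p = 1.98e-14). Canx, the membrane-bound calnexin, was slightly higher (log2 fold change 0.07, SE 0.02, adjusted p = 0.0183). The call on Canx ended without sedentary replicate 2 (adjusted p = 0.14), sedentary replicate 3 (0.0577) or exercise replicate 2 (0.0725), and with DESeq2 (0.054). Calr exceeded Canx by 7.17 to 7.50 times in sedentary and by 5.84 to 5.99 times in exercise libraries, per length. Hsp90b1, the HSP90 of the endoplasmic reticulum, rose from 333 ± 3.76 to 380.0 ± 6.64 FPKM (SD, n = 3; log2 fold change 0.11).

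These shifts changed the order of the transcripts. In sedentary livers P4hb and Calr stood first and second of the 35 genes, and their ranges (576 to 581 and 568 to 573 FPKM) were close but apart. Ppib, Hsp90b1 and Hspa5 followed at mean FPKM of 346, 333 and 326, and the lowest Ppib library (340.3 FPKM) was just above the highest Hsp90b1 library (337 FPKM). In exercise livers Hspa5 stood first, with all 3 libraries above every P4hb library. The ratio of Hspa5 to P4hb went from 0.559 to 0.569 up to 1.08 to 1.12. The summed FPKM of the 18 genes was 3111 to 3140 in sedentary and 3519 to 3553 in exercise libraries, and without Hspa5 it was 2784 to 2814 and 2927 to 2947. These are net sums, in which the 5 genes that fell offset part of the rise of the 11 others. They are also on the FPKM scale, where the median log2 fold change of all tested genes was 0.0711 with limma on log2(FPKM + 0.1). With TMM scaling that median was −0.00062. The part of this general shift in the sums was not tested.

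**Figure D3:**
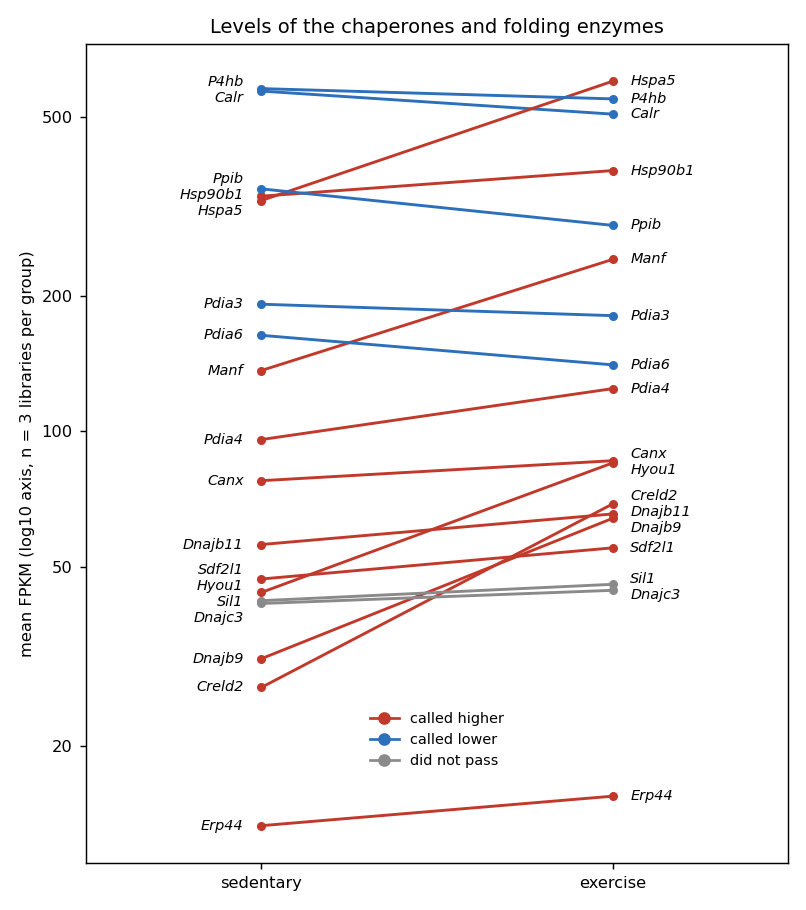
Mean FPKM of the 18 chaperones and folding enzymes (log10 axis) in sedentary and exercise livers, joined by a line for each gene and coloured by call. Hspa5 crosses above P4hb and Calr, while P4hb, Calr, Ppib, Pdia3 and Pdia6, all among the most abundant, slope downward.

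ERAD genes were higher in 8 of 11 cases and lower in 2, with a median log2 fold change of 0.17, and Edem2 did not pass. All 4 genes of the ubiquitin ligase complex rose, and the 3 derlins and the 4 genes of glycan trimming and recognition gave mixed calls. The gain was uneven. The summed FPKM of the 11 genes was 482 ± 9.85 in sedentary and 680.3 ± 9.07 in exercise libraries (SD, n = 3). Without Herpud1 and Syvn1 it was 282 to 296 and 317 to 324. These sums too are on the FPKM scale, on which the median of all tested genes was shifted upward.

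Syvn1 encodes Hrd1, the ubiquitin ligase of the complex (gene ID 74126, chromosome 19, 6046576 to 6053718). It had 27.4, 27.9 and 28.3 FPKM in the sedentary and 68.6, 71.0 and 70.1 FPKM in the exercise libraries. The groups lay far apart (log2 fold change 1.25, SE 0.03, edgeR adjusted p = 1.61e-35), and Syvn1 had the smallest adjusted p of the 35 genes. Sel1l, the adaptor that stabilises Hrd1 (gene ID 20338, chromosome 12, 91806043 to 91849157), had 23.4, 24.6 and 23.1 FPKM in sedentary and 30.7, 31.7 and 31.4 FPKM in exercise libraries (log2 fold change 0.32, SE 0.03, adjusted p = 4.08e-13). Ligase and adaptor transcripts were thus near parity in sedentary livers, with a Syvn1 to Sel1l ratio of 1.14 to 1.23, and stood at 2.23 to 2.24 in exercise livers. Mrpl49 overlaps 1.87% of the annotated exon bases of Syvn1 on the other strand, with a mean FPKM of 19.5 in sedentary livers and 16.8 after exercise.

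Herpud1, a short-lived membrane protein that recruits clients to Hrd1 (gene ID 64209, chromosome 8, 94386429 to 94395371), was the most abundant ERAD transcript. It had 162, 169 and 163 FPKM in sedentary and 285, 290.5 and 293 FPKM in exercise libraries, with no overlap (log2 fold change 0.74, SE 0.02, edgeR adjusted p = 9.08e-30). Its share of the summed ERAD FPKM went from 33.8% to 34.4% up to 42.5% to 42.6%. Selenos, a selenoprotein that links the complex to the ATPase p97, was higher as well (log2 fold change 0.22, SE 0.05).

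The derlins, membrane proteins that help clients cross back to the cytosol, did not move together. Derl1 and Derl2 were higher, at log2 fold changes of 0.15 (SE 0.03) and 0.17 (SE 0.04), whereas Derl3 (gene ID 70377, chromosome 10, 75893398 to 75895941) was lower. Derl3 had 7.96, 7.29 and 7.29 FPKM in sedentary and 4.57, 4.89 and 5.24 FPKM in exercise libraries, and the groups did not overlap (log2 fold change −0.71, SE 0.11, edgeR adjusted p = 1.15e-06). In bulk tissue, fewer cells of a type and less RNA per cell cannot be told apart. Derl3 is known to be high in secretory cells such as those of the pancreas and in plasma cells. Pancreatic acinar markers moved with it: 24 of 34 listed were in the table, summing to 323 to 348 reads in sedentary and 194 to 226 in exercise libraries, and 18 of them, Amy2a5 and Pnlip included, had reads in sedentary but none in exercise livers. Plasma and B cell markers, 16 of 24 in the table, summed to 213 to 219 reads in sedentary and 167 to 195 in exercise libraries. Their part in the Derl3 result was not tested. One acinar marker, the transcription factor gene Bhlha15, which is also known as a target of XBP1, went the other way, with 27, 24 and 21 reads in sedentary and 75, 72 and 99 in exercise libraries, and it was below the FPKM minimum for testing.

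Among the genes that read or trim N-glycans, Edem3, a mannosidase that marks glycoproteins for disposal, rose most. It had 5.14, 5.20 and 4.95 FPKM in sedentary and 7.61, 7.04 and 6.82 FPKM in exercise libraries (gene ID 66967, chromosome 1, log2 fold change 0.41, SE 0.05, edgeR adjusted p = 1.03e-09). Its relative Edem1 was also higher (log2 fold change 0.17), and Edem2 was at −0.04 (SE 0.04, adjusted p = 0.402). Os9, a lectin that hands trimmed clients to the Sel1l complex, was lower, from 77.6 ± 0.125 to 73.2 ± 2.48 FPKM (SD, n = 3; log2 fold change −0.16). The Os9 call ended with limma on log2(FPKM + 1) (adjusted p = 0.0571), log2(FPKM + 0.1) (adjusted p = 0.0577) and log2(TPM + 1) (adjusted p = 0.231).

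**Figure D4:**
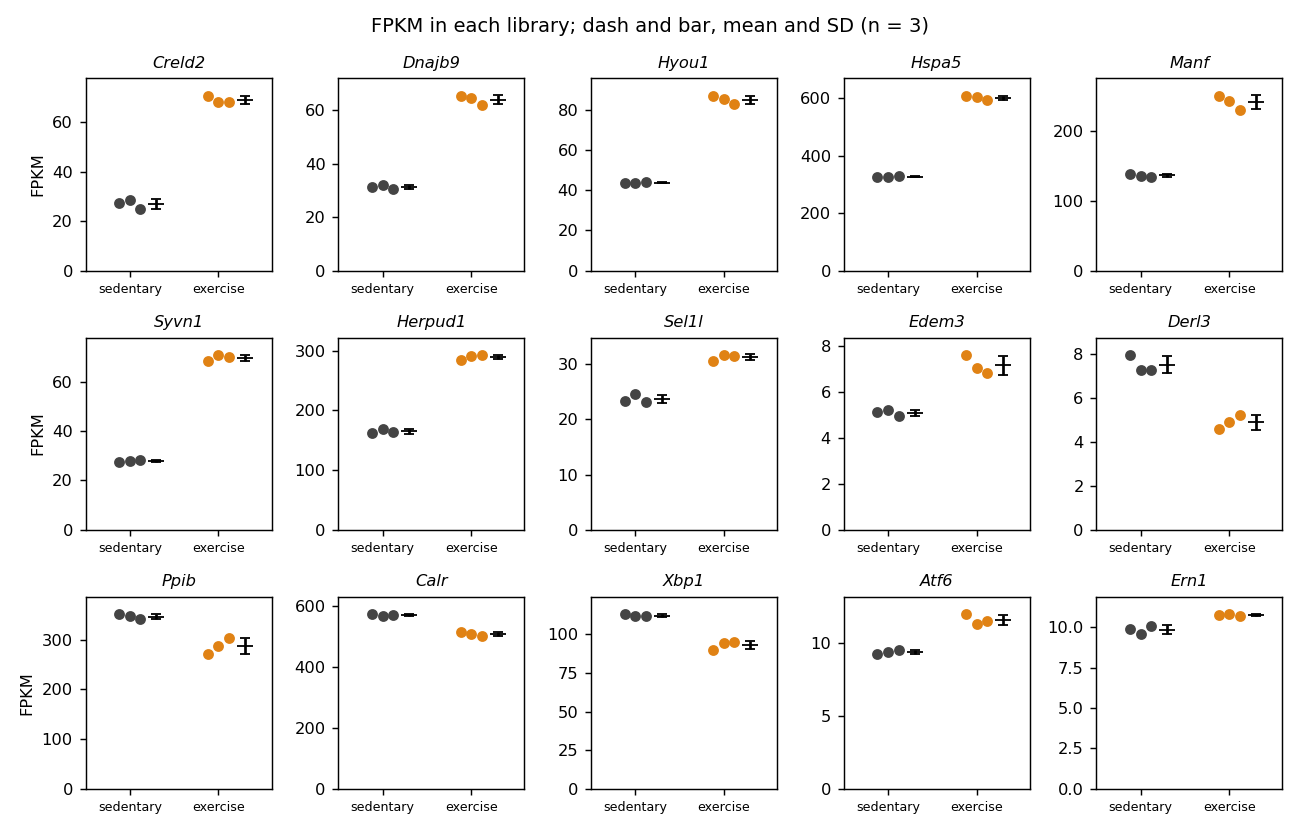
FPKM of 15 of the genes in each of the 3 sedentary (dark) and 3 exercise (orange) libraries, with the mean and SD beside the points, on axes that start at 0. The groups are apart in each panel, with the mean ratio farthest from parity for Creld2 and nearest to it for Ern1, which did not pass the count-based test.

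The sensors and transcription factors gave mixed calls. Of the 4, Atf6 was higher, Xbp1 lower, and Ern1 and Atf6b did not pass, with a median log2 fold change of 0.05. Xbp1, whose spliced form is the transcription factor made after IRE1 is activated (gene ID 22433, chromosome 11, 5520641 to 5525993), had 113, 112 and 112 FPKM in sedentary and 89.8, 94.1 and 94.9 FPKM in exercise libraries. All exercise libraries were below all sedentary ones (log2 fold change −0.35, SE 0.03, edgeR adjusted p = 7.52e-15). Gene-level values do not separate spliced from unspliced Xbp1, so they carry no measure of splicing. Atf6, which is cut at the Golgi to release a transcription factor (gene ID 226641, chromosome 1, 170704457 to 170868585), had 9.22, 9.36 and 9.50 FPKM in sedentary and 11.96, 11.3 and 11.5 FPKM in exercise libraries (log2 fold change 0.23, SE 0.04, adjusted p = 1.24e-06).

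Ern1, which encodes IRE1, had 9.87, 9.56 and 10.1 FPKM in sedentary and 10.7, 10.8 and 10.7 FPKM in exercise libraries. The FPKM ranges were apart, but by TMM-scaled counts the log2 fold change was 0.05 (SE 0.05, edgeR adjusted p = 0.409). Ern1 passed with library totals alone (0.13, adjusted p = 0.021) and in the limma fits. Atf6b, the relative of ATF6, had 7.88, 8.05 and 7.63 FPKM in sedentary and 8.37, 8.68 and 8.46 FPKM in exercise libraries (log2 fold change 0.04, SE 0.06, adjusted p = 0.663). By FPKM, 25 of the 35 genes had all exercise libraries above all sedentary ones, where 36.6% of all tested genes did, and 8 had all below, where 14.3% did.

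Translocon genes were near flat. Sec61a1, the channel subunit, had 65.9, 64.6 and 68.0 FPKM in sedentary and 75.8, 74.2 and 74.0 FPKM in exercise libraries (log2 fold change 0.10, SE 0.03, edgeR adjusted p = 0.00315). Sec61b, a small subunit, had 170.4, 179.9 and 175 FPKM in sedentary and 176, 185 and 184 FPKM in exercise libraries, with overlapping groups (log2 fold change 0.00021, SE 0.05, adjusted p = 0.998). Of 25 other genes of the translocon, signal peptidase and signal recognition particle, 7 were higher (28%), none lower and 18 did not pass (median 0.05). The higher ones included Hspa13, an HSP70 relative (log2 fold change 0.51), and Srprb, a subunit of the signal recognition particle receptor (0.52).

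Other genes of the pathway were set beside these in lists, to be read against 19.1% higher and 19% lower over all tested genes. Oxidative folding enzymes and further co-chaperones were even, with 8 of 35 higher (22.9%), 8 lower (22.9%) and a median log2 fold change of −0.01. Ero1lb, the oxidase noted above for its ERSE, rose from 19.9 ± 0.0781 to 31.3 ± 0.391 FPKM (SD, n = 3), and Txndc5, another disulfide isomerase, rose (log2 fold change 0.23). Nucb2, a calcium-binding protein, fell (−1.21), as did the sulfhydryl oxidase gene Qsox1 (−0.17). The oligosaccharyltransferase and N-glycan list had 6 of 21 higher and 5 lower (median 0.000078). In it Gfpt1, the entry enzyme of hexosamine synthesis and a known XBP1 target, rose (0.57) and so did Magt1 (0.31), while Rpn1, a core subunit of the transferase (−0.23), and Prkcsh, a subunit of glucosidase II (−0.23), fell.

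Of 49 tested ERAD components outside the 11 genes, 8 were higher (16.3%) and 4 lower (8.16%), with a median log2 fold change of 0.01. Both shares were below those over all tested genes (19.1% and 19%). The higher ones included the ubiquitin-conjugating enzyme genes Ube2g2 (log2 fold change 0.40) and Ube2j1 (0.27), the ligase gene Rnf145 (0.34) and Herpud2 (0.29). Regulators of ATF6 and IRE1 signalling, a list that shares Atf6b with the 35 genes, had 8 of 33 higher (24.2%) and 5 lower (15.2%), median 0.04. Ficd, which modifies BiP with AMP and reverses that mark, was higher (0.53, edgeR adjusted p = 1.24e-06), and so were Creb3l2 (0.43), an ER-anchored transcription factor, and Yy1 (0.26), a partner of ATF6. In the same list Bak1, an effector of cell death, fell (−0.67).

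Of the 9 lists, transport out of the endoplasmic reticulum had the largest share of higher calls, with 26 of 46 higher (56.5%), 5 lower and a median of 0.09. Stx5a, a syntaxin of the Golgi, rose from 26.6 ± 1.43 to 40.0 ± 1.32 FPKM (SD, n = 3; log2 fold change 0.54). The COPII coat genes Sec24d and Sec23b rose as well (0.39 and 0.42), as did Arfgap3, which acts on the COPI coat (0.71). ER-phagy and ER shape genes had none higher and 6 of 15 lower (median −0.03), among them the receptors Retreg3 (−0.30) and Retreg1 (−0.21), the ER-shaping gene Reep5 (−0.35) and Cdk5rap3 (−0.18).

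The PERK branch had 9 of 21 genes higher (42.9%) and 4 lower (19%), with a median of 0.13. Eif2ak3, the gene of PERK itself, rose from 4.58 ± 0.425 to 6.69 ± 0.236 FPKM (SD, n = 3; log2 fold change 0.51, edgeR adjusted p = 5.31e-09), Atf4 rose (0.39), Ddit3, which encodes CHOP, rose from 10.3 ± 0.365 to 20.7 ± 1.62 FPKM (1.04), and Cebpb fell (−0.36). The same list held larger changes in both directions, chosen here after their values were seen. The hepatokine gene Fgf21 rose (2.01), from 0.92 ± 0.217 to 3.91 ± 0.939 FPKM (SD, n = 3). Fgf21 thus met the filter on low values only through the exercise libraries. Asns, asparagine synthetase (−1.05), and Chac1, which degrades glutathione (−1.11), both known ATF4 targets, fell. Of 27 cytosolic heat shock genes 15 were higher (55.6%) and none lower, with a median log2 fold change of 0.16. The 18 chaperones and folding enzymes had 61.1% higher and a median of 0.13. Among the heat shock genes Hspa1b (2.01), Hspa8 (0.40), Hsph1 (0.77) and Hspa1a (3.13) rose. Hspa1a had the highest log2 fold change of all tested genes, but its level was low. It rose from 0.377 ± 0.110 to 3.48 ± 0.15 FPKM (SD, n = 3). Like Fgf21, Hspa1a thus met the filter on low values only through the exercise libraries. Both Hspa1a and Hspa1b had counts that were not whole.

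**Figure D5:**
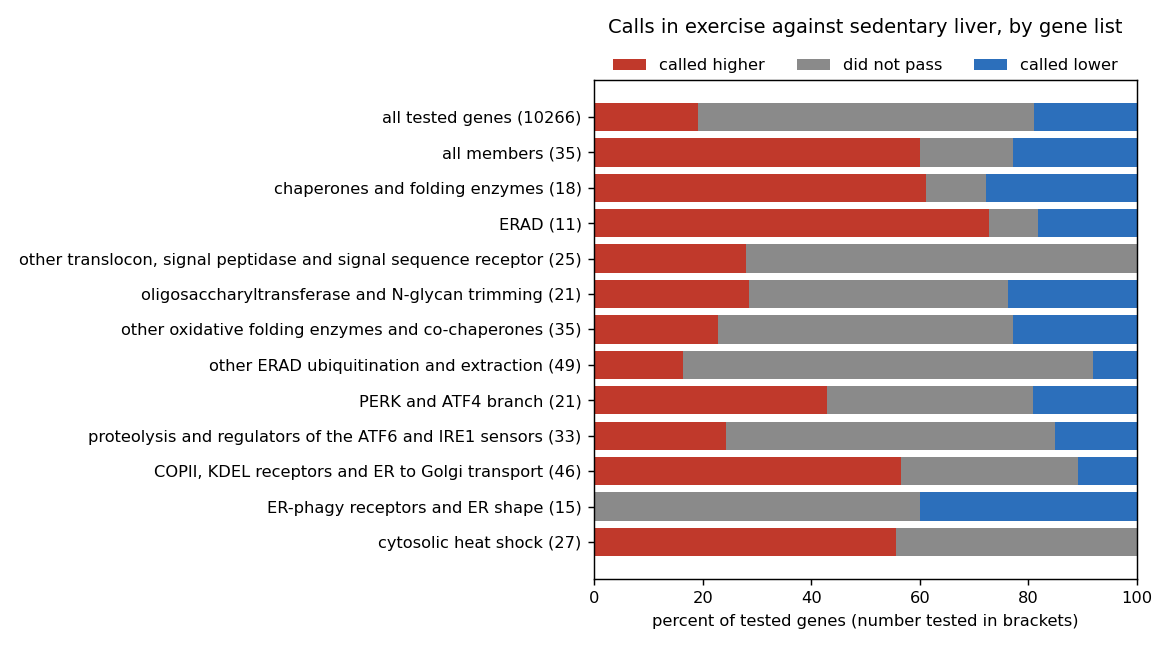
Percent of tested genes called higher, not past the test and called lower in exercise against sedentary livers, for all tested genes, the 35 genes, their 2 large roles and 9 lists of related genes, with the number tested in brackets. The red share is 72.7% for ERAD and 61.1% for the chaperones, against 19.1% for all tested genes.

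Markers of other cell types differed between the groups too. Hepatocyte markers had 10 of 25 higher and 11 lower (median 0.03). Of Kupffer cell and macrophage markers 14 of 17 were lower and none higher, summing to 13797 to 14159 reads in sedentary and 11367 to 11592 in exercise libraries. Liver endothelial markers were higher in 10 of 18 cases and lower in none, at 8942 to 9028 and 10560 to 10685 reads. Stellate cell and fibroblast markers had 7 of 13 higher and 1 lower, at 5939 to 6069 and 7421 to 7470 reads. Neutrophil markers had 1 of 4 lower and none higher, at 214 to 239 and 95 to 117 reads, and the called gene, Prtn3, had 128, 118 and 121 reads in sedentary and 10, 14 and 17 in exercise libraries. Their part in the results for chaperones and ERAD genes was not tested.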

How the data were processed

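Liver RNA in 3 exercise and 3 sedentary libraries was read in pairs on a DNBseq instrument, and reads of low quality were removed, per the labels' protocols. The submitters' processing notes name GRCm38.p6, cutadapt, featureCounts and MultiQC, and aligner, annotation and strand setting are not stated there. Per the file headers, the authors deposited a read count, an FPKM and a TPM for each gene and library. The deposited counts were treated as estimated counts, because 1165 of 16123 genes have one that is not whole, and where the fractions come from is not stated.

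Counts were rounded and fitted in edgeR 4.0.16 (R 4.3.3) over the 10266 genes whose FPKM averaged 1 or more, with TMM scaling, a quasi-likelihood F test between the groups, no covariates, and Benjamini-Hochberg adjustment over all of them at 0.05. Log2 fold changes use a prior count of 0.125, and standard errors were derived from them and the F statistic. FPKM means carry SD. Alternatives used limma 3.58.1 and DESeq2 1.42.0. Simulated data with known changes were tested: of the genes changed 1.25-fold, 82% were called, and of those changed 2-fold, 96%. The simulation took its spread from these libraries and changed far fewer genes than were called here. Its rates therefore hold for the spread between these libraries, which may be technical, and not for the spread between mice. The common biological coefficient of variation was 1.84%.

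The 35 genes and the lists were chosen with earlier results of these data known, so lists are described by counts and medians without a test. Values in every library are given for the 5 chaperones and the 5 ERAD genes with the largest called changes, for all sensors and translocon genes, and, chosen after their values were seen, for Ppib, Calr and P4hb. Up to 4 called genes with the smallest p are named from each list, and Bhlha15, Prtn3, Alg12, Acnat2, Xlr3a, Fgf21, Asns and Chac1 were named after their values were seen. Promoters, gene positions and coordinates counted from 1 are from RefSeq tables of GRCm38.p6, and exon overlaps from GENCODE M21 on GRCm38. Protein sequences were not used here.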

Additional observations from a re-analysis of the deposited data

How the results depend on the processing

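Over 18 alternatives the 29 called genes kept their sign, and 7 (Creld2, Dnajb9, Herpud1, Hspa5, Hyou1, Manf and Syvn1) passed in every one. In the 16 alternatives with no raised bar 25 passed throughout, and Canx, Os9, P4hb and Pdia3 did not. Library totals alone gave 3537 genes higher and 1203 lower over all genes and 2 sensors higher. DESeq2 called 1272 and 1240 over all genes. Limma left 1099 lower on log2(FPKM + 1) and 1096 on log2(FPKM + 0.1), both with 1 ERAD gene lower and 2 sensors higher. Limma on log2(TPM + 1), added after the data were seen, gave 3716 and 915 over all genes, with 5 of the 35 genes lower, 3 of them chaperones and 1 in ERAD, and 3 sensors higher. A test against a 1.2-fold change left 239 and 414 over all genes, 8 and 3 of the 35 genes, 5 and 1 chaperones, 3 and 1 ERAD genes and 0 sensors higher. With 1 summed library per group at an assumed variation of 0.1 these were 50 and 126 over all genes, 7 and 0, 5 and 0, 2 and 0, and 0 sensors either way. The uncalled Edem2 turned positive with totals alone (0.034), on FPKM (0.0298 and 0.0307) and on TPM (0.0637). Sec61b turned negative at a mean FPKM of at least 5 (−0.00634) and summed (−0.0017), and ranged from −0.0234 to 0.0321 with a library left out, as Sil1 did from −0.000718 to 0.0763. The cause was not tested.

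Libraries with the same replicate number did not deviate together (correlations −0.0258, 0.00213 and 0.0248 over 8829 genes). With the replicate block, 21 of the 35 genes were higher and 8 lower, and 1929 and 1917 over all genes.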
